A study of Mus musculus with 3 samples.

Results

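The outer layer of the gastrulating mouse embryo, the endoderm, was compared with the epiblast that it encloses, gene by gene, in embryos of the ICR strain at embryonic day 7.5 (E7.5). Each layer's RNA was read on 1 array (Affymetrix Mouse Genome 430 2.0), and the mesoderm array of the same stage stands beside the pair for reference. Per the study's methods, the layers of the embryonic part came from a manual dissection that followed enzyme digestion, and the piece called epiblast also holds the neuroectoderm and the primitive streak. The endoderm piece is the whole outer layer of that part, in which cells of visceral and of definitive origin were not separated. No mutation or treatment is part of the design, and the sources used here do not give the number of embryos behind each array.

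The members are genes chosen by 1 rule. Only probe sets annotated to a single symbol were used, the one brightest on the log2 scale stood for its gene, and a gene was kept where the higher of its endoderm and epiblast intensities passed the median of all deposited values, 80.6, called the floor here. Of 18193 genes, 12626 were kept and 5567 were dim in both layers. The difference is log2 of the endoderm intensity minus log2 of the epiblast intensity, so 1 is a 2-fold higher and -1 a 2-fold lower value in endoderm. With 1 array per layer there is no replicate, no p-value and no error between embryos, and each difference describes these arrays. The only spread that could be measured is the one between probe sets of the same gene, whose differences varied with a pooled SD of 0.40 over 5412 genes. In bulk RNA, fewer cells of a type and less RNA per cell cannot be told apart.

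Visceral endoderm of this stage is known as an absorptive epithelium. How far this holds for the endoderm of the embryonic part dissected here was not tested. Visceral endoderm cells take up proteins and lipids from the maternal side through coated pits at a brush border, break them down in acid vacuoles near the apical surface, and release lipoproteins and carrier proteins toward the embryo, while definitive endoderm cells that leave the primitive streak insert themselves among them. The epiblast is a proliferating epithelium of pluripotent cells from which all tissues of the body, the germ line included, are made.

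In endoderm, 1596 of the 12626 genes were at least 2-fold higher than in epiblast (12.6%) and 503 were at least 2-fold lower (3.98%). The remaining 10527 genes lay within 2-fold, the median difference was 0.05, and the middle of the distribution ran from -0.24 to 0.51 at the quartiles. The excess was steeper at the extremes. A difference of 10-fold or more was measured for 135 genes on the endoderm side and 13 on the epiblast side, or 101 and 7 when values under the floor were raised to it. In 388 of the higher genes the epiblast value, and in 177 of the lower genes the endoderm value, was under the floor, and a fold for such a gene is given below as "at least", against the floor. The split depended on how the arrays were scaled to each other. Higher genes made up 76.0% of all genes past 2-fold on the deposited values. Their share was 73.9% after cyclic loess and 73.3% after centring on the median gene. It was 64.5% after quantile normalization of the 3 arrays and 60.2% after centring on 11 housekeeping genes. Quantile normalization moved the median gene from 0.05 to -0.11 and housekeeping centring shifted every gene by -0.23, and a family median whose sign turned under any of these 4 scalings is marked where it is given.

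**Figure D1:**
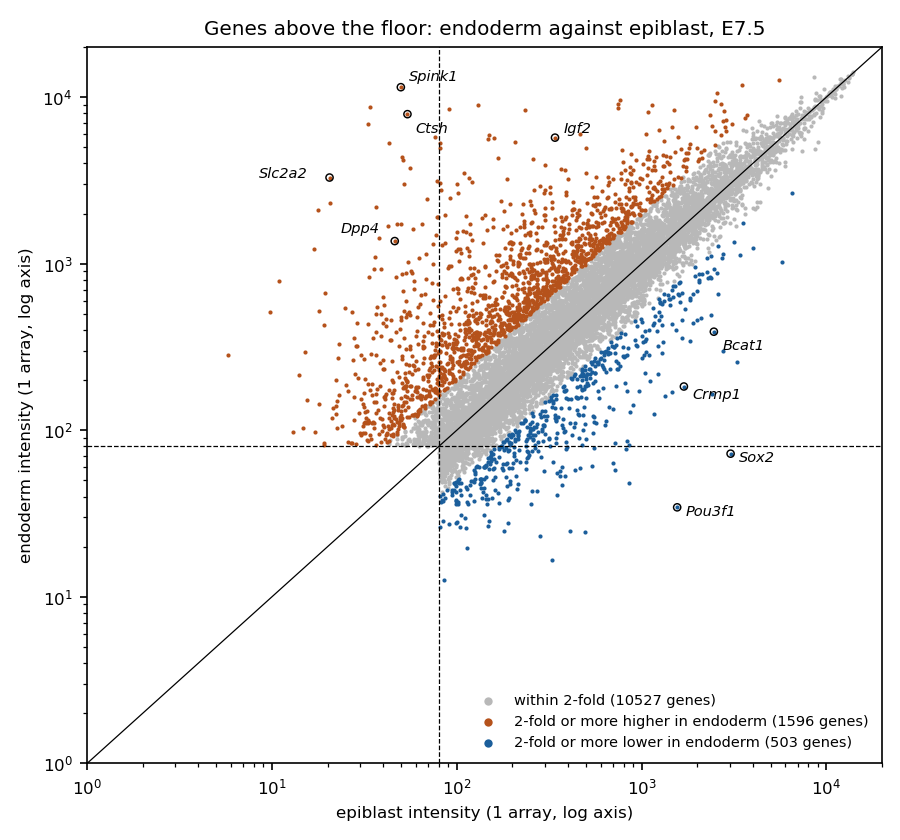
Endoderm intensity against epiblast intensity for the 12626 genes above the floor, 1 point per gene, both axes logarithmic, 1 array per layer. Orange points are the 1596 genes at least 2-fold higher in endoderm, blue points the 503 at least 2-fold lower, grey points the 10527 within 2-fold, and the dashed lines mark the floor of 80.6. The orange cloud reaches much further from the diagonal than the blue one.

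The label of the outer layer held against its markers. All 22 visceral endoderm markers above the floor were at least 2-fold higher in endoderm and their summed intensity was 92896 there against 4824 in mesoderm and 2315 in epiblast. Of 13 definitive endoderm markers 9 were higher and 0 lower, and of 13 epiblast markers 0 were higher and 7 lower, with summed intensities of 10432, 10937 and 27316 on the endoderm, mesoderm and epiblast arrays. Lists of other cell types differed in what they showed. The mesoderm list summed to 3603, 24080 and 4957, with 2 of 15 members higher (Foxc2 and Twist1) and 5 lower. The parietal endoderm list, which marks the layer that Reichert's membrane carries, summed to 21741, 15073 and 9958, with 8 of 13 higher and 2 lower. Trophoblast markers summed to 4640, 2949 and 4187, with 2 of 10 higher (Plac1 and Krt7) and the defining genes Elf5, Tpbpa, Psg17 and Ctsq under the floor in both layers. The embryonic globins Hbb-bh1, Hbb-y and Hba-x, the leukocyte gene Ptprc, the endothelial genes Pecam1 and Cdh5 and the decidual gene Prl8a2 were also under the floor in both layers. The immune, endothelial and decidual lists nevertheless had 3 of 10, 5 of 10 and 7 of 12 members above the floor. Of these, Fcer1g, Ramp2 and Igfbp1 were at least 2-fold higher in endoderm, and the decidual genes Pgr and Alpl were lower. The part of parietal endoderm, trophoblast or these other cell types in the differences below was not tested. In what follows, a series of 3 values for a gene is its intensity on the endoderm, mesoderm and epiblast arrays, in that order, and the mesoderm value shares the epiblast array wherever it is set against it. Intensities of different genes come from different probes and are not compared.

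The genes were grouped into 130 functional families, of which 126 had at least 5 members above the floor and 4019 genes took part. A median of 1 or more was found in 8 of them, 3 of which are marker lists, and a median of -1 or less in 1, the epiblast marker list. Counts are read against the 12.6% higher and 3.98% lower of all genes. Beyond the marker lists, the 5 families with a median of 1 or more were the cytosolic and lysosomal peptidases, the V-type proton ATPase, the annexins and S100 proteins, cholesterol export and esterification, and the metallothioneins, iron and copper genes, and the family that stood lowest was that of neuronal adhesion and neurite genes. Of these 5, the last 3 fell under 1 in at least 1 of the 4 other scalings, with lowest medians of 0.80, 0.74 and 0.76 in that order.

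**Figure D2:**
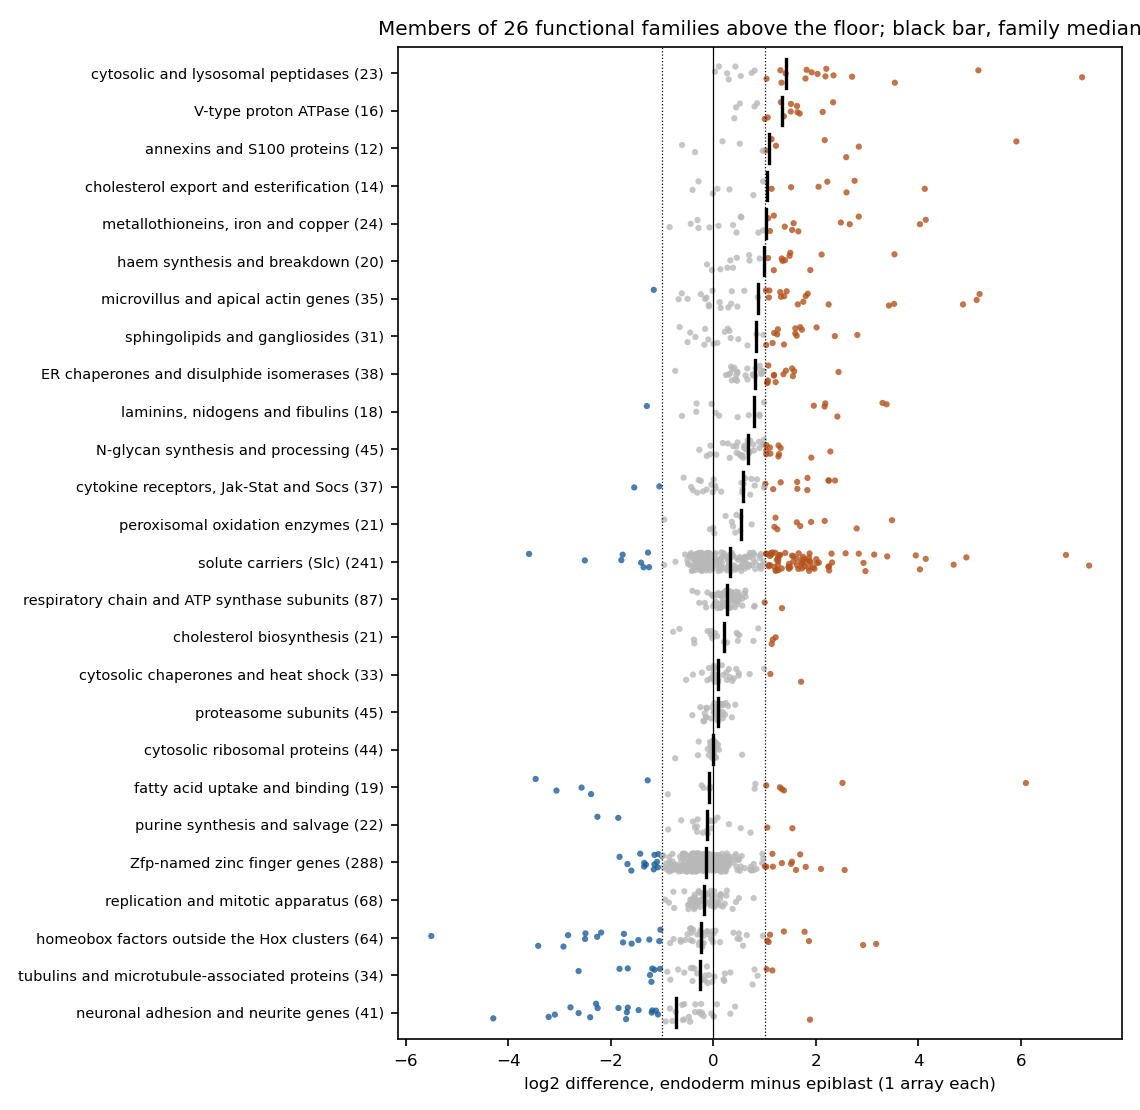
Log2 difference, endoderm minus epiblast, of every member above the floor in 26 functional families, with the number of members in parentheses; orange and blue points lie past 2-fold (dotted lines) and the black bar is the family median, from 1 array per layer. Digestive and acidifying families sit at the right, ribosomal and proteasome genes crowd around 0, and neurite genes sit at the left.

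The families of acidification and digestion had the highest medians outside the marker lists. The V-type proton ATPase pumps protons into endosomes and lysosomes, and of its 16 genes above the floor 11 were at least 2-fold higher in endoderm and 0 lower, with a median difference of 1.35. Atp6v0a1, a membrane subunit that steers the pump to its compartment, read 949, 203 and 188. Atp6v0b, part of the proton-carrying ring, read 2504, 503 and 571. Both were highest in endoderm, by 5.05-fold and 4.39-fold over epiblast. The catalytic subunit Atp6v1a (3222, 1025 and 1002, 3.22-fold), the stalk subunit Atp6v0d1 (3002, 1086 and 963, 3.12-fold), the accessory subunit Atp6ap1 (1485, 539.9 and 479, 3.10-fold) and the regulatory subunit Atp6v1h (1782, 652 and 624, 2.86-fold) were highest in endoderm as well. Mesoderm and epiblast were near each other for this family, with a median difference of 0.02 between them. Peptidases of the cytosol and the lysosome had 15 of 23 higher, 0 lower and a median of 1.41. Ctsc, a dipeptide-releasing cathepsin that activates serine proteases, read 8636, 838 and 743 and was 11.6-fold higher in endoderm than in epiblast. Dpp7, a dipeptidyl peptidase of vesicles, read 817, 109 and 125 (6.52-fold), and Ctsa, the protective protein of lysosomal galactosidase, read 2323, 563 and 505 (4.60-fold).

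Some of these promoters carry the palindrome TCACGTGA, the core of the element bound by the TFEB and MITF group of regulators of lysosomal genes. It was searched on both strands from 250 bases before to 50 after each RefSeq start (GRCm38.p6), and 3 of 11 of the proton pump genes with a promoter sequence and 3 of 19 of the peptidase genes held it, against 2.12% of 10210 genes. A match is a description of letters and not a bound site. The windows are shown because they belong to the families with the highest medians, with the first copy of the palindrome in capitals and the strand of the gene. The Ctsa window holds another copy, left in lower case. Atp6v0e and Ctsd were added to the named genes for their sequence, after their values were seen.
Atp6v1a (chr16:44139362-44139413, minus strand): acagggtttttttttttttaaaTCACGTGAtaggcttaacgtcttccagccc
Atp6v0d1 (chr8:105566039-105566090, minus strand): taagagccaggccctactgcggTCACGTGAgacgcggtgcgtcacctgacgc
Atp6v0e (chr17:26676376-26676427, plus strand): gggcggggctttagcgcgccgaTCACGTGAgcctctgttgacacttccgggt
Ctsa (chr2:164833738-164833789, plus strand): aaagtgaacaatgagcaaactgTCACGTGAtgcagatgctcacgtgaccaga
Ctsd (chr7:142387897-142387948, minus strand): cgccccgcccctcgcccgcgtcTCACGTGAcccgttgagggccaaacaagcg
Dpp7 (chr2:25356377-25356428, minus strand): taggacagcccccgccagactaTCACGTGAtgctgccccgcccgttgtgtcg
All 6 of these genes were above 2-fold in endoderm, but the palindrome did not track the size of the difference: 3.01% of the genes at least 2-fold higher held it, 0 of the 115 genes at least 10-fold higher did, and 0.811% of the genes at least 2-fold lower did.

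Surface enzymes and uptake receptors held members with wide gaps. Among 11 peptidases of the brush border, 4 were higher and the others within 2-fold, with a median of 0.47 (its sign turns with the scaling). Dpp4, a dipeptidyl peptidase of absorptive epithelia, read 1367, 49.1 and 46.2 and was above the floor only in endoderm (at least 17.0-fold). Tmprss2, a transmembrane serine protease, read 3740.2, 33.8 and 55.6 (at least 46.4-fold). Cpm, a carboxypeptidase anchored by a lipid, read 1672, 97.6 and 157 (10.7-fold), and Enpep, the aminopeptidase that trims angiotensin, read 481, 66.8 and 49.9 (at least 5.97-fold). The endocytic receptors and adaptors had 9 of 22 members higher and a median of 0.75. Beside the cubilin complex, Dab2, the adaptor that links such receptors to clathrin, read 8359, 493 and 234 (35.8-fold). Lrpap1, the chaperone of the megalin family in the secretory pathway, read 4739, 972 and 1101 (4.31-fold), and Ehd1, a recycling protein, read 2496, 842 and 649.8 (3.84-fold). Of 46 autophagy genes 9 were higher and 0 lower at a median of 0.39. The membrane proteins Dram2 (1310.2, 339.6 and 199.7, 6.56-fold) and Dram1 (358, 64.8 and 52.1, at least 4.44-fold) headed that list, and Tfeb itself read 473, 193 and 223 (2.12-fold).

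Membrane trafficking genes were spread around the background. Of 52 Rab GTPases 12 were higher and 3 lower, with a median of 0.25. Rab4a and Rab11a, of the fast and the slow recycling routes, read 2356, 315 and 427 and 4862, 1673 and 1632, 5.52-fold and 2.98-fold higher in endoderm. Rab17 (553, 175 and 181, 3.05-fold) and Rab20 (349, 30.0 and 82.0, 4.26-fold), both described in polarised epithelia, were higher too. Rab39b, a Rab of neurons, ran the other way at 56.6, 205 and 362 (at least 4.49-fold lower). Of 55 SNARE and synaptotagmin genes 9 were higher and 2 lower, at a median of 0.14 (its sign turns with the scaling). Stx7, the syntaxin of late endosomes, read 3644, 426 and 387 (9.41-fold). Vamp8, a partner of Stx7 in endosome fusion and in apical secretion, read 2101, 173 and 459.9 (4.57-fold), and Stx3, the apical syntaxin, read 4249.5, 884 and 1766 (2.41-fold). Among Rab activators and exchange factors 6 of 42 were higher, led by Dennd5b (1125, 367 and 170.2, 6.61-fold), and 1 was lower, Tbc1d4 (81.0, 266 and 176, 2.18-fold). The inositol lipid genes had 12 of 52 higher and 2 lower. Sgk3, an endosomal kinase with a lipid-binding domain, read 2776, 295 and 261 (10.6-fold), and Synj1, a phosphatase of coated vesicles, read 1655, 326 and 230.4 (7.18-fold).

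Solute carriers made up the largest transporter family, and 72 of 241 were at least 2-fold higher in endoderm (29.9%) against 8 lower (3.32%), with a median of 0.33. Slc2a2, the low-affinity glucose carrier of liver, pancreas and gut, read 3290.3, 25.1 and 20.5 and was at least 40.8-fold higher. Slc7a9, the light chain of the cystine and dibasic amino acid exchanger, read 2094, 17.0 and 17.8 (at least 26-fold). Both lay under the floor on the other arrays. Slc13a4, a sulphate carrier, read 4292, 156 and 167 (25.7-fold). Slc39a5 and Slc39a8, which bring zinc and other metals into cells, read 1549, 95.2 and 100.4 and 4238, 990.3 and 259.8, 15.4-fold and 16.3-fold higher, and Slc39a8 was also raised in mesoderm over epiblast. Of the carriers that were higher in epiblast, Slc7a3, a cationic amino acid carrier, read 196, 208 and 1115 (5.68-fold lower in endoderm). Slc1a3, a glutamate carrier of glia, read 71.1, 63.8 and 246 (at least 3.06-fold lower), and Slc35d3 read 23.3, 39.0 and 281 (at least 3.49-fold lower).

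Among the ATP-driven transporters 8 of 28 ABC genes were higher and 1 lower, at a median of 0.15 (its sign turns with the scaling). Abca3, a phospholipid transporter known from lamellar bodies, read 1076, 60.3 and 62.7 (at least 13.4-fold). Abcg2, an apical exporter of xenobiotics and porphyrins, read 3323, 1360.2 and 662 (5.02-fold), and Abcc2, an exporter of conjugates into bile, read 359, 26.5 and 27.8 (at least 4.45-fold). Abcc1, its basolateral relative, was the 1 member lower, at 262, 467 and 553 (2.11-fold). P-type ATPases had 6 of 26 higher and 2 lower. In the sodium pump the beta subunits went opposite ways, with Atp1b1 at 4075, 486 and 795 (5.12-fold higher) and Atp1b2 at 259, 783 and 731 (2.82-fold lower). The aquaporins Aqp11 (793, 158 and 212, 3.74-fold) and Aqp3 (581, 189.7 and 192, 3.03-fold) were the 2 of 7 past 2-fold. In the channel list 11 of 59 members were higher and 2 lower, and the higher ones included Clcn5, the chloride exchanger of endosomes in absorptive cells (4269, 1035 and 1095, 3.90-fold), Mcoln1, a lysosomal cation channel (884, 295 and 268, 3.29-fold), Clic6 (2261, 202 and 251, 9.01-fold) and Clic1 (3206, 746 and 776, 4.13-fold). The median of that list was -0.04 (its sign turns with the scaling). Cacng8, an accessory subunit known from neurons, was lower at 85.0, 89.9 and 392 (4.62-fold).

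**Figure D3:**
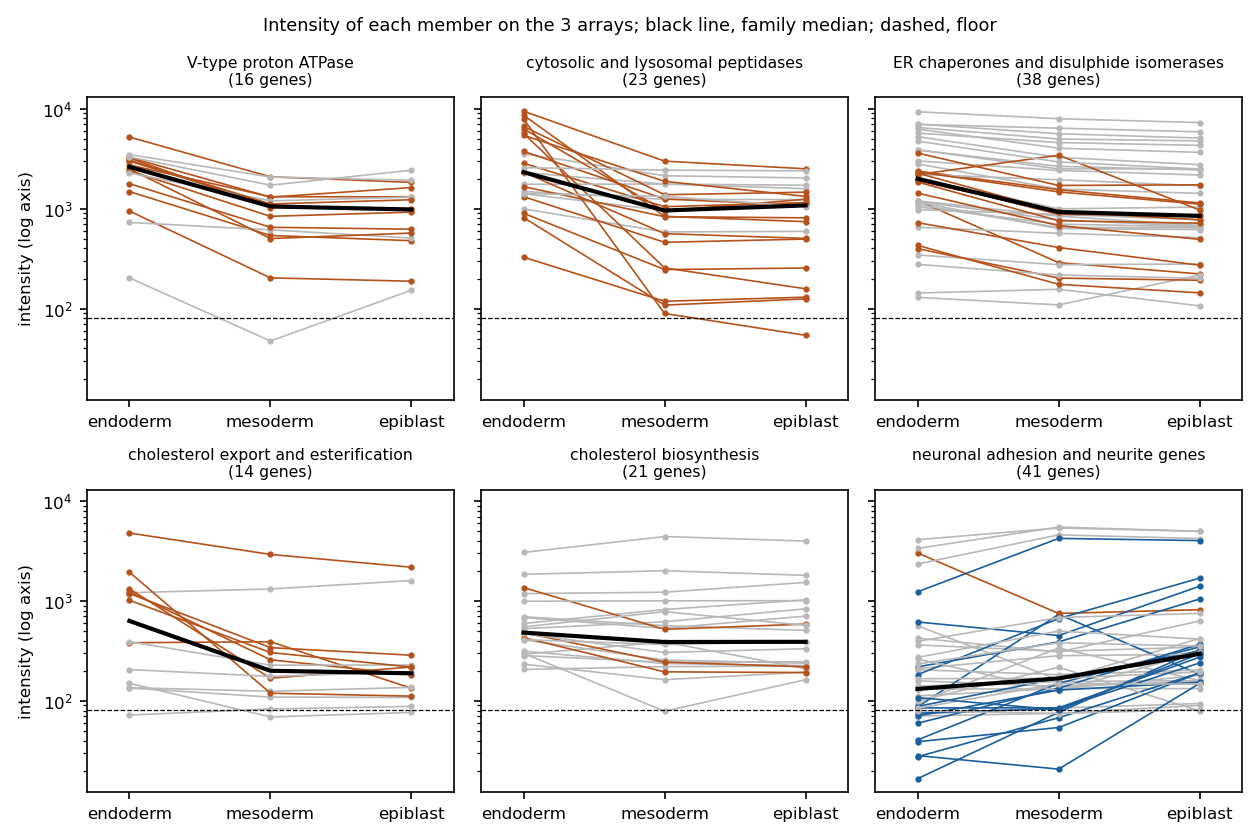
Intensity (log axis) of each member above the floor on the endoderm, mesoderm and epiblast arrays for 6 families, 1 array per layer; orange and blue lines are members at least 2-fold higher or lower in endoderm than in epiblast, grey lines the others, the black line the family median and the dashed line the floor of 80.6. The proton pump, peptidase, ER chaperone and cholesterol export panels step down from endoderm to mesoderm and stay level to epiblast, cholesterol biosynthesis is nearly flat, and neurite genes climb from endoderm to epiblast.

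Lists of lipid genes differed in how many members lay past 2-fold. Cholesterol export and esterification had 7 of 14 members higher, 0 lower and a median of 1.05, whereas cholesterol biosynthesis had 3 of 21 higher, 0 lower and a median of 0.21 (its sign turns with the scaling), a contrast between lists that was not tested. Mttp, which loads lipid onto nascent lipoproteins, read 1944, 119 and 112 (17.4-fold). Stard4, a cytosolic sterol carrier, read 1236, 258 and 183 (6.75-fold). The lysosomal pair Lipa, the acid lipase, and Npc1, the sterol exporter, read 1017, 305 and 218 and 1188, 341 and 286, 4.67-fold and 4.15-fold higher. Scarb1, the receptor for high-density lipoprotein, read 1323, 169 and 219 (6.05-fold). All of these were highest in endoderm. Abca1, which hands cholesterol to apolipoproteins, was alike in endoderm and mesoderm (382, 391 and 134) and 2.86-fold above epiblast. In the biosynthetic list the genes past 2-fold were Ebp (1363, 520.4 and 587, 2.32-fold), Sc5d (429.6, 195 and 192, 2.23-fold) and Hsd17b7 (483, 245 and 219, 2.20-fold), which act on sterols late in the pathway.

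Triglyceride genes had 7 of 28 higher and 1 lower, at a median of 0.44. Dgat2 and Mogat2, which add the last acyl chains of triglyceride, read 2649, 499.9 and 296 and 3521, 1629.8 and 868 (8.96-fold and 4.06-fold), and Plin2, the coat of lipid droplets, read 1780.5, 898 and 568 (3.13-fold). Lpin1 was lower at 58.3, 106 and 156 (at least 1.94-fold) while its paralogue Lpin2 was higher at 1163, 367 and 374 (3.11-fold). Fatty acid synthesis and desaturation was mixed, 2 of 20 being higher and 3 lower around a median of -0.17. The desaturases Fads1 (248, 825 and 542, 2.18-fold lower) and Fads2 (200.4, 822 and 475, 2.37-fold lower) and the elongase Elovl6 (464, 1090.5 and 993, 2.14-fold lower) were lower in endoderm than in both other layers. Elovl1, which extends saturated very long chains, was higher at 1654, 559 and 288 (5.75-fold).

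Fatty acid breakdown had members higher in endoderm in both of its compartments. Mitochondrial oxidation and ketone genes had 8 of 25 higher and 3 lower, median 0.56, and peroxisomal oxidation had 9 of 21 higher and 0 lower, median 0.53. Acaa2, the last thiolase of the mitochondrial spiral, read 1124, 403 and 216 (5.19-fold). Oxct1, which lets tissues burn ketone bodies, ran the other way at 658, 1560.4 and 1888 (2.87-fold lower in endoderm), and so did the brain-type carnitine transferase Cpt1c (59.5, 73.5 and 177, at least 2.19-fold lower). In the peroxisome Phyh, which starts phytanic acid breakdown, read 1774, 177 and 256 (6.94-fold), and Ehhadh, its bifunctional enzyme, read 464, 41.0 and 41.5 (at least 5.75-fold). Peroxins, the assembly factors, had 2 of 13 past 2-fold. Fatty acid and retinoid carriers split by gene, with 6 of 19 higher and 5 lower and a median of -0.08. Fabp1, the liver fatty acid binding protein, read 233, 43.6 and 40.6 (at least 2.88-fold), and Dbi, which carries acyl-CoA, read 4629, 1816 and 1782 (2.60-fold). Crabp2 (162, 710.4 and 1347, 8.33-fold lower), Fabp7 (134, 593 and 698, 5.22-fold lower) and Fabp3 (43.0, 65.0 and 255, at least 3.16-fold lower), carriers known from embryonic ectoderm, brain and muscle, were lower, as was the lipase Lpl (63.8, 350.5 and 704, at least 8.73-fold lower).

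Sphingolipid genes leaned to endoderm as a group, with 14 of 31 higher, 0 lower and a median of 0.84. The list spans making and breaking: the desaturase Degs1 (4549.7, 1754 and 880.3, 5.17-fold), the ceramide synthase Cers2 (1763, 620.0 and 582, 3.03-fold) and the sphingomyelin synthase Sgms1 (1765, 548 and 252, 7.0-fold) were higher, and so were the lysosomal hydrolases Glb1 (1002, 235 and 248, 4.04-fold), Hexa (3107, 989 and 938, 3.31-fold) and Asah1 (2335, 577 and 722, 3.24-fold). For phospholipids 9 of 33 were higher and 1 lower. Pla2g12b, a secreted phospholipase homologue of liver and gut, read 1957, 93.5 and 86.1 (22.7-fold). Lpcat3, which puts polyunsaturated chains into membranes, read 1693, 574 and 549 (3.08-fold). Pcyt1b, an enzyme of phosphatidylcholine synthesis known from neurons, was lower at 59.5, 119 and 191 (at least 2.37-fold). Among steroid dehydrogenases 4 of 12 were higher, with Hsd17b2 under the floor outside endoderm (321, 25.6 and 28.4, at least 3.98-fold) and Hsd11b2, which inactivates glucocorticoid, brightest in mesoderm (838, 1242 and 199, 4.20-fold over epiblast).

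Amino acid and nucleotide metabolism showed differences in single steps. Amino acid breakdown had 9 of 42 members higher and 2 lower, median 0.23 (its sign turns with the scaling). Aass, which opens lysine degradation, read 1731, 97.7 and 118 (14.6-fold). Pcbd1, which recycles the cofactor of phenylalanine hydroxylase and also binds the factor HNF1, read 4984, 221 and 503 (9.91-fold). Bcat1, the cytosolic aminotransferase of branched-chain amino acids, was 6.30-fold lower in endoderm, at 391, 1643 and 2462. In serine and glycine metabolism Psph, the last step to serine, read 3630.3, 940.4 and 814 (4.46-fold), and 2 genes of the glycine cleavage system, Gldc and Gcsh, read 4367, 322 and 1429 and 6584, 3395 and 2839 (3.06-fold and 2.32-fold), while the mitochondrial folate enzyme Mthfd2 was lower at 451, 938 and 924 (2.05-fold). In the methionine list Bhmt2 (420.5, 48.1 and 41.6, at least 5.21-fold) and Cdo1, which oxidises cysteine (383, 77.1 and 89.5, 4.28-fold), were higher and Cbs, the entry to transsulphuration, was lower (94.2, 78.2 and 259, 2.75-fold).

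In purine metabolism the X-linked pair Prps1 and Prps2, which make the ribose donor for nucleotides, read 495, 1803 and 2370.2 and 458, 1256 and 1656, 4.79-fold and 3.61-fold lower in endoderm, while 2 of 22 members were higher. Pyrimidine genes had 3 of 26 higher, 0 lower and a median of 0.03 (its sign turns with the scaling). Of the higher ones, Dpyd and Upp1 break pyrimidines down (541, 49.0 and 24.9, at least 6.70-fold, and 1185, 734 and 346, 3.42-fold), and Cda salvages them (160.4, 52.9 and 68.1, at least 1.99-fold). Sat1, which acetylates polyamines for export, read 1733, 263 and 232 (7.46-fold).

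Metal and haem genes were among the families with the highest medians. In the metallothionein, iron and copper list 12 of 24 members were higher and 0 lower, median 1.02. Slc40a1, ferroportin, the iron exporter, read 1307, 54.0 and 74.0 (at least 16.2-fold). Atp7b, the copper pump of hepatocytes, read 1526, 86.1 and 242 (6.32-fold), and the copper carrier Slc31a2 read 850.5, 192 and 119 (7.14-fold). The metal reductases Steap2 (467, 115 and 83.3, 5.6-fold) and Steap1 (242, 114 and 76.8, at least 3.0-fold) were higher too. Haem synthesis and breakdown had 10 of 20 higher and 0 lower, median 0.98. Hebp1, a haem-binding protein, read 1391, 241 and 120.3 (11.6-fold), and the pathway enzymes Uros, Cpox and Fech read 864, 410.2 and 305, 570.5, 420.3 and 217 and 1255, 511 and 448 (2.83-fold, 2.63-fold and 2.80-fold). The erythroid genes Alas2 and Klf1 and the embryonic globins were under the floor in both layers. Of the 8 erythroid markers measured, 2 were above the floor, both within 2-fold. The cell source of the haem gene differences was not tested. Of the vitamin genes 8 of 32 were higher and 1 lower. Folr1, the folate receptor (1418, 91.4 and 99.2, 14.3-fold), Slc23a1, a vitamin C carrier (1100.1, 26.6 and 36.0, at least 13.6-fold), and Vkorc1, which recycles vitamin K (3466, 871 and 875, 3.96-fold), were higher, and Ttpa, the vitamin E transfer protein, was lower (57.7, 191 and 178, at least 2.21-fold).

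Central carbon genes had 6 of 25 higher and 0 lower, median 0.68. Pygl, the liver glycogen phosphorylase, read 879, 213 and 230.0 (3.82-fold), and Slc37a4, which carries glucose 6-phosphate into the endoplasmic reticulum, read 523, 146 and 188 (2.78-fold). Glutathione and peroxide genes had 6 of 35 higher and 0 lower, led by the secreted peroxidase Gpx3 at 3929, 521 and 299 (13.2-fold). The oxidant-sensing factor Nfe2l2 (2456, 1678 and 1218, 2.02-fold) and its inhibitor Keap1 (658, 352 and 247, 2.66-fold) both lay past 2-fold. Among glutathione transferases 5 of 18 were higher and 2 lower, with Gstm1 (1652, 175 and 368, 4.48-fold) and Mgst3 (1901, 289 and 367, 5.17-fold) on one side and the mitochondrial Gstk1 (179, 406 and 615, 3.44-fold lower) on the other, and a median of 0.13 (its sign turns with the scaling). Aldehyde dehydrogenases and aldo-keto reductases had 7 of 21 higher and 1 lower. The lower one, Aldh1a2, which makes retinoic acid, was brightest in mesoderm (283, 2894 and 1027, 3.63-fold lower in endoderm than in epiblast), and Cyp26a1, which degrades retinoic acid, was brightest in endoderm (2131, 923 and 428, 4.98-fold).

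The lists of folding in the endoplasmic reticulum, N-glycans and GPI anchors had members higher in endoderm and none lower. Sialyl- and fucosyltransferases, a further glycosylation list, had 1 of 21 higher and 3 lower, median 0.04 (its sign turns with the scaling). Of 38 chaperones and disulphide isomerases of the endoplasmic reticulum 13 were higher and 0 lower, median 0.82. Pdia5, a disulphide isomerase, had the widest gap at 1209, 289 and 223 (5.43-fold). The mannosidase-like proteins Edem3 and Edem1, which mark misfolded glycoproteins, read 2271, 933 and 775 and 1433, 679 and 494 (2.93-fold and 2.90-fold). Herpud1, of the degradation complex, read 726, 409 and 272 (2.67-fold). N-glycan synthesis and processing had 11 of 45 higher and 0 lower, median 0.67, with the trimming mannosidase Man1a at 417, 297 and 85.7 (4.86-fold) and the glucosyltransferases Alg5, Alg6 and Alg8 at 612, 283 and 163, 295, 159.9 and 121 and 424, 271 and 171 (3.76-fold, 2.43-fold and 2.48-fold). GPI anchor synthesis had 3 of 24 higher (12.5%), near the 12.6% of all genes, median 0.51. Cytosolic chaperones, in contrast, had 2 of 33 higher and a median of 0.09 (its sign turns with the scaling), and Hsp90aa1 read 10293, 10509 and 10284. The difference between these chaperone lists was not tested.

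Chaperone genes of the endoplasmic reticulum are known for a stress element made of CCAAT, a spacer of 9 bases and CCACG, read by ATF6 and the factor NF-Y. With the spacing required, 9 of the 34 ER genes with a promoter sequence (26.5%) held it on either strand, against 16 of 10210 genes (0.157%), in a search added after the data were seen. Because the element is known from such genes, their higher share is not a finding of these data. Other families were not counted for the spaced element. The windows of 8 of the holders are shown as examples, with both parts in capitals. Where the element lies on the other strand its parts appear as CGTGG and ATTGG. The genes were picked for their sequence.
Hspa5 (chr2:34772003-34772065, plus strand): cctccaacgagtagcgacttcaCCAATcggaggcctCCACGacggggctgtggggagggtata
Hsp90b1 (chr10:86705616-86705678, minus strand): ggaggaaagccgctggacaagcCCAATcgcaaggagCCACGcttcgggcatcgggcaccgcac
Calr (chr8:84847053-84847115, minus strand): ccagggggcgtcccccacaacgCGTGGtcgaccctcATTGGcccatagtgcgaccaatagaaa
Canx (chr11:50325778-50325840, minus strand): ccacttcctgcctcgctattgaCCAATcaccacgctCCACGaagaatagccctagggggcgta
Pdia6 (chr12:17266469-17266531, plus strand): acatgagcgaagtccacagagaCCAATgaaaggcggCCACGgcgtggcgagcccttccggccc
Dnajc3 (chr14:118937805-118937867, plus strand): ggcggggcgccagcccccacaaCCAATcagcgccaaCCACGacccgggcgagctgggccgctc
Creld2 (chr15:88819498-88819560, plus strand): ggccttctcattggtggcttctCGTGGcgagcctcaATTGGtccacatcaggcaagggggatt
Syvn1 (chr19:6046510-6046572, plus strand): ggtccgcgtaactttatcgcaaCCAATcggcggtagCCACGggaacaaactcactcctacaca
The element did not separate the genes by their difference. The 9 holders had a median of 0.66, from 0.25 for Hsp90b1 to 1.22 for Creld2, and 2 of them were at least 2-fold higher. The 25 genes without it had a median of 0.93, with 9 higher. Hspa5, the main chaperone of the compartment, read 9346, 7959.5 and 7282, Calr read 6269.8, 4034 and 3667 and Dnajc3 read 2383, 1551 and 1141, and only the last of these was past 2-fold. The transcription factors Xbp1 (3869.7, 1818 and 1330.3, 2.91-fold), Creb3 (886, 415 and 305, 2.91-fold), Creb3l1 (319, 107 and 56.0, at least 3.96-fold), Creb3l2 (362, 249 and 122.8, 2.95-fold) and Creb3l3 (987, 289 and 330.2, 2.99-fold), which act on secretory genes, were all past 2-fold. They made up 5 of the 9 bZIP factors higher among 37, a family with 0 lower and a median of 0.16 (its sign turns with the scaling).

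Secreted and extracellular proteins differed by gene. Serpins had 5 of 17 higher and 1 lower, with Serpinh1, the collagen chaperone, at 3632, 2789 and 1183 (3.07-fold) and Serpinf2, which inhibits plasmin, at 487, 98.9 and 115 (4.22-fold). The complement list had 6 of 16 higher and 0 lower. Its widest gaps were in inhibitors on the cell surface, Cd59a (1857, 249.5 and 157, 11.8-fold) and Cd55 (427, 55.7 and 19.1, at least 5.29-fold), while the soluble factors Cfi, Mbl2 and Cfb read 195, 168 and 111 in endoderm. In the protease list Prss12 (1736, 119.7 and 64.9, at least 21.5-fold), Prss8 (2162, 68.3 and 329, 6.57-fold), Plat (512, 199 and 54.9, at least 6.36-fold) and the protein convertase Furin (2132, 847 and 668, 3.19-fold) were higher. Laminins, nidogens and fibulins had 6 of 18 higher and 1 lower, median 0.80. The basement membrane genes Nid1 (768, 315 and 73.8, at least 9.52-fold), Nid2 (2500.2, 675 and 551, 4.54-fold) and Lama1 (539.8, 527 and 101, 5.35-fold) belonged to them, and so did Fbn2, which was brightest in mesoderm (247, 867 and 54.9, at least 3.06-fold). Collagens had 4 of 28 higher, and the pair with the widest gaps was Col4a2 and Col4a1 (2663, 926 and 318 and 4784, 1775 and 786, 8.36-fold and 6.08-fold). Several of these (Nid1, Lama1, Col4a1, Col4a2 and Plat) are also on the parietal endoderm list above, whose part in them was not tested.

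Proteoglycans went both ways, 5 of 26 higher and 5 lower. Gpc3, an X-linked glypican (6026, 2714 and 1061, 5.68-fold), Sdc4 (1905, 285 and 445, 4.28-fold) and Agrn (3953, 1226 and 1404, 2.82-fold) were higher. The hyaluronan receptor Cd44 was lower (83.3, 601 and 344, 4.13-fold). Among sulphate-transferring and modifying enzymes Chst15 (874, 283 and 53.4, at least 10.8-fold) and Sulf2 (3883, 1361 and 1167, 3.33-fold) were higher and Hs6st2 and Chst7 were lower (224, 1030.0 and 639.9 and 119.8, 579 and 354, 2.86-fold and 2.96-fold).

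Several genes of epithelial architecture were higher in endoderm. Microvillus and apical actin genes had 17 of 35 higher and 1 lower, median 0.87. Vil1, which bundles actin in microvilli, read 2435, 49.9 and 69.4 (at least 30.2-fold). Myo6, the motor that pulls endocytic vesicles inward from the brush border, read 1739, 51.8 and 47.6 (at least 21.6-fold), and Myo5b, the motor of apical recycling, read 391, 32.4 and 36.4 (at least 4.85-fold). Cdhr2, a protocadherin-like protein that links microvillus tips, read 522, 19.5 and 17.9 (at least 6.48-fold), and the scaffold Pdzk1 read 2067, 148 and 179 (11.5-fold). All of these were under the floor in epiblast or at least 10-fold higher in endoderm. The 1 member lower was moesin, Msn (574, 1735 and 1284, 2.24-fold), whose relatives Ezr and Rdx were among the members higher. Desmosome genes had 6 of 16 higher and 0 lower, with the cadherins Dsc2 (1343, 147 and 194, 6.91-fold) and Dsg2 (4396, 1108 and 1191, 3.69-fold), desmoplakin, Dsp (2523, 1333 and 662, 3.81-fold), and Perp (559.5, 101 and 111, 5.03-fold). Keratins had 5 of 20 higher and 0 lower, although their median was -0.15. The simple epithelial pair Krt8 and Krt18 read 9001, 4001 and 1136 and 8193, 2739.7 and 1086 (7.93-fold and 7.54-fold) and Krt19 read 998, 107 and 74.9 (at least 12.4-fold). Of the connexins Gjb2 (550.0, 56.3 and 61.5, at least 6.82-fold) and Gjb1 (172, 48.3 and 59.6, at least 2.13-fold) were higher and Gjc1 lower (341, 1495 and 1023, 3.0-fold). Polarity genes had 6 of 38 higher and 2 lower, and the Frizzled receptors of that list went opposite ways, Fzd6 at 551, 84.8 and 218 (2.53-fold higher) and Fzd3 at 250.1, 677 and 584 (2.34-fold lower).

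Annexins and S100 proteins, which bind calcium and membranes, had 7 of 12 higher and 0 lower, median 1.08. S100g, the calcium carrier of absorptive gut cells, read 2203, 19.5 and 36.7 (at least 27.3-fold), and Anxa4, an annexin of secretory epithelia, read 873, 112 and 122 (7.14-fold). S100a10 was raised in mesoderm as well (3503, 2271 and 778, 4.51-fold over epiblast). Tetraspanins had 8 of 23 higher and 1 lower, with Cd9 at 1819.8, 394 and 516 (3.53-fold) and Cd151 at 2150.1, 1016 and 726 (2.96-fold). Lgals2, a galectin of the gut, read 1621, 45.9 and 57.9 (at least 20.1-fold).

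The family with the highest share of genes lower in endoderm, beyond the epiblast markers, was neuronal. Neuronal adhesion and neurite genes had 17 of 41 lower (41.5%) and 1 higher, median -0.73. Crmp1, which relays guidance signals to growth cones, read 183, 667 and 1695 and was 9.26-fold lower. The intermediate filament genes Ina (219, 389.6 and 1047, 4.77-fold) and Nefl (40.7, 149.9 and 347, at least 4.30-fold) and the neuronal tubulin Tubb3 (59.8, 134 and 369.6, at least 4.58-fold) were lower as well. The mesoderm lay between the other layers for each of these. The 1 member higher, Flrt3, an adhesion protein also known from anterior visceral endoderm, read 3022, 750.3 and 819 (3.69-fold). Tubulins and microtubule-associated proteins had 8 of 34 lower and 2 higher, median -0.26, with Map1b at 138, 342 and 489 (3.55-fold lower) and Stmn2 at 617, 451 and 1407 (2.28-fold lower, a member of both lists like Tubb3), against the epithelial Map7 at 722, 82.4 and 351 (2.06-fold higher). Protocadherins had 2 of 6 lower and 0 higher, median -0.57, but were brightest in mesoderm, whose median over epiblast was 1.14. Pcdh19 read 217, 2918 and 481 and Pcdh18 234, 1129 and 529 (2.21-fold and 2.26-fold lower in endoderm than in epiblast). Ion channel receptors for transmitters had 4 of 41 lower and 3 higher, median -0.34. Grik3, a kainate receptor subunit, was lower at 282, 184 and 834 (2.96-fold) and P2rx4, an ATP-gated channel found in lysosomes, higher at 709.7, 97.9 and 95.0 (7.47-fold).

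Signalling genes differed in both directions. Of the hormone and peptide list 14 of 40 were higher and 4 lower, median 0.15 (its sign turns with the scaling). Igf2, the embryonic growth factor, read 5712, 3421 and 340.2 (16.8-fold), and was bright in mesoderm too. Pth1r, the receptor for parathyroid hormone-related protein, read 1548, 838 and 112 (13.8-fold), Ghr, the growth hormone receptor, read 629, 225 and 177 (3.56-fold), and Klb, the co-receptor of endocrine fibroblast growth factors, read 595, 80.5 and 81.3 (7.32-fold). Igf1r, the receptor of the Igf2 ligand, was lower in endoderm (316, 725 and 795, 2.51-fold), as was Fst, which binds activin (299.96, 1189 and 2752, 9.17-fold). Ligands of receptor tyrosine kinases split 6 higher to 5 lower of 36, with Gas6 (1233, 244 and 104, 11.9-fold), Kitl (2944, 605 and 283, 10.4-fold), Vegfa (554, 379.6 and 149.8, 3.70-fold) and Efnb1 (1678, 1001 and 336, 4.99-fold) higher and Ptn (81.2, 340.3 and 851, 10.5-fold) lower. Their receptors had 4 of 40 higher, among them Erbb3 (826, 41.0 and 348, 2.37-fold), Fgfr3 (534, 685 and 230.1, 2.32-fold) and Epha2 (932, 153 and 429.9, 2.17-fold), and 5 lower, among them Pdgfrb (85.7, 623 and 238, 2.78-fold).

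The cytokine receptor, Jak-Stat and Socs list had 10 of 37 higher and 2 lower, median 0.57. Jak2 read 469, 182 and 90.6 (5.18-fold), Stat3 read 579, 154 and 121 (4.76-fold) and Stat5b read 225, 65.8 and 47.4 (at least 2.79-fold), all highest in endoderm. Their feedback inhibitor Socs2 was lower at 733, 1423 and 1520.5 (2.07-fold). Lifr, the receptor of leukaemia inhibitory factor, read 1366, 1450.5 and 439.9 (3.10-fold) on its brightest probe set, but its other probe set above the floor differed by -0.71, so its direction rests on the probe set. In the tumour necrosis factor and Toll-like list 7 of 28 were higher and 0 lower, median 0.22 (its sign turns with the scaling), led by Tnfrsf12a (1354, 146 and 198, 6.85-fold) and Ltbr (383, 159 and 83.4, 4.59-fold). Interferon-inducible genes went both ways, with Ifi30, a lysosomal thiol reductase, at 2569, 261 and 388 (6.62-fold) and the membrane proteins Ifitm2 and Ifitm3 lower (1357, 2941 and 3150.1 and 178, 345 and 474, 2.32-fold and 2.66-fold), around a median of -0.06 (its sign turns with the scaling).

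Intracellular signalling showed a similar spread. Phosphodiesterases and adenylyl cyclases had 3 of 24 higher and 6 lower, and Pde3b, which the insulin pathway activates, read 193, 881 and 809.7 (4.20-fold lower). Rgs genes had 0 of 13 higher and 2 lower, led by Rgs10 (117, 217 and 377, 3.22-fold). Phosphatases of MAP kinases and Sprouty genes had 5 of 24 higher and 1 lower, with Dusp9, an X-linked phosphatase, at 1762, 2517 and 509 (3.46-fold), Spry1 at 868, 169 and 283 (3.07-fold) and Dusp1 at 258, 487 and 575 (2.23-fold lower). In the Ras family Rerg was at least 5.07-fold lower (24.8, 175 and 409) and Mras at least 4.14-fold higher (334, 77.8 and 77.5). Of the Hippo list 1 of 30 members was higher, Amot, an X-linked junction protein that holds YAP (8375, 3612 and 1502, 5.57-fold).

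Transcription factor families were led by single factors. Homeobox genes outside the Hox clusters had 15 of 64 lower (23.4%) and 8 higher (12.5%), median -0.25. Lower in endoderm were Gbx2 (77.2, 294 and 824, at least 10.2-fold), a factor of the anterior hindbrain, Mixl1 (77.8, 234 and 554, at least 6.87-fold), a factor of the streak, and Meis2 (172, 1085 and 972, 5.66-fold). Higher were Lhx1 (1587, 1078 and 209.6, 7.57-fold) and Hhex (571, 222 and 63.2, at least 7.08-fold), both needed in the anterior endoderm, and Irx1 (564, 793 and 155, 3.64-fold), which was brightest in mesoderm. Forkhead genes had 8 of 29 higher (27.6%) and 1 lower with a median of 0.00 (its sign turns with the scaling). Foxa1 (1895, 36.1 and 79.0, at least 23.5-fold) and Foxa3 (557, 38.2 and 79.3, at least 6.91-fold), which open chromatin in endoderm, Foxo4 (1811, 499 and 373, 4.86-fold) and Foxj1 (530.1, 48.6 and 120.2, 4.41-fold), which drives motile cilia, were higher, and Foxb1 was lower (93.5, 99.2 and 215, 2.3-fold).

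Among nuclear receptors 5 of 31 were higher and 3 lower, median -0.05 (its sign turns with the scaling). Hnf4a, a central regulator of visceral endoderm and liver genes, read 2471, 94.0 and 92.1 (26.8-fold), and the retinoic acid receptor Rarg was lower at 245, 515 and 763 (3.12-fold). In the helix-loop-helix family Tfec, a relative of TFEB and MITF, read 512, 17.4 and 27.0 (at least 6.36-fold), Epas1 read 441, 458 and 115 (3.85-fold) and Myc read 747, 704 and 208 (3.58-fold), while Mesp1 (172, 2057 and 579, 3.36-fold) and Hes7 (174, 288 and 477, 2.75-fold) were lower. Kruppel-like Klf6 (1338, 649 and 308, 4.34-fold) and the ETS factors Elf1 (492, 166 and 55.5, at least 6.10-fold) and Elf3 (391, 70.0 and 128, 3.07-fold) were higher, and Sp8 was lower (252, 90.1 and 745, 2.96-fold). The Zfp-named zinc finger genes, many of them repressors with KRAB domains, had 12 of 288 (4.17%) higher and 14 (4.86%) lower, median -0.15, and between 17 and 32 lower under the other scalings. Zfp948 (614, 244 and 104, 5.90-fold) and Zfp462 (604, 807 and 1829, 3.03-fold lower) were the extremes among those named. Zc3hav1, an antiviral RNA-binding protein placed in a neighbouring list by its name, read 1576, 643 and 108 (14.6-fold), and Zbtb16 read 968, 82.0 and 175 (5.54-fold).

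Chromatin lists differed in how many members lay past 2-fold. Polycomb and trithorax genes had 2 of 47 higher and 2 lower, median 0.02 (its sign turns with the scaling). In the Polycomb complex that marks histone H2A, Pcgf5 (2358, 807 and 329, 7.17-fold) and Bmi1 (1214, 991 and 532, 2.28-fold) were higher and Phc1 (927, 1016 and 2457, 2.65-fold) and Cbx6 (279.8, 353 and 797, 2.85-fold) lower. In the DNA methylation and silencing list 4 of 24 were higher (16.7%) and 1 lower (4.17%). Of these, Mbd2, which reads methylated DNA (824, 241 and 106, 7.78-fold), Morc4 (1907, 465 and 78.3, at least 23.7-fold) and the germ line helicase Ddx4 (355, 132 and 81.2, 4.37-fold) were higher, and Dnmt3a was lower (820.1, 1213 and 2296, 2.80-fold). Of the cyclin and Cdk inhibitor list 4 of 49 were higher, among them the inhibitors Cdkn1c (3486, 2912 and 498, 7.0-fold) and Cdkn2a (502, 20.7 and 36.4, at least 6.23-fold), and 1 was lower, median 0.14 (its sign turns with the scaling). Among apoptosis genes the p53 target Pmaip1 was lower (218, 537 and 1235, 5.66-fold) and 6 of 34 were higher, with Casp8 at 633, 116 and 203 (3.12-fold).

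The core machinery of growth lay within 2-fold on the deposited values. In 8 families with 407 genes above the floor no member was past 2-fold: proteasome subunits (45 genes), tRNA synthetases (34), ribosome biogenesis (61), cytosolic ribosomal proteins (44), mitochondrial ribosomal proteins (76), DNA repair (68), the replication and mitotic apparatus (68) and the housekeeping list (11). Their medians ran from -0.18 to 0.21, which is within the shifts between scalings. DNA repair genes did pass 2-fold under each of the 4 other scalings, with 1 to 4 lower. Replication genes did so under at least 1 of them, with up to 4 lower. Both medians stayed negative under all 4, from -0.34 to -0.17 for DNA repair and from -0.41 to -0.24 for replication. Pcna, the replication clamp, read 7574, 8592 and 9236, Npm1, the nucleolar chaperone, read 11556, 12658 and 12501, and Rps29 of the small ribosomal subunit read 13789.5, 13641 and 13695. Several of these values are close to the highest intensities that the arrays gave. Respiratory chain and ATP synthase subunits had 2 of 87 past 2-fold, Ndufb10 and the muscle-type Cox7a1 (1955, 1120.0 and 977 and 216, 54.0 and 85.2), and their median was 0.27.

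Imprinted genes, read from 1 parental copy, lay past 2-fold more often than the background on both sides, 15 of 41 being higher (36.6%) and 5 lower (12.2%), median 0.44. Beside Igf2, the higher ones included the growth restrictor Cdkn1c, Dlk1 (791, 243 and 59.0, at least 9.82-fold), Asb4 (632, 1152 and 39.8, at least 7.84-fold), which was brightest in mesoderm, Gab1 (1339, 364 and 191, 7.0-fold) and Sfmbt2 (808, 61.6 and 68.4, at least 10.02-fold). The last 2 are imprinted in extra-embryonic tissue. Lower in endoderm were Magel2 (119, 317 and 553, 4.63-fold), Snrpn (111, 189 and 410.5, 3.71-fold) and Zdbf2 (312, 704 and 847, 2.71-fold). The list was not compared with other lists by a test. In the list headed by the Mage and Xlr families 5 of 30 were higher, Tex2 and Tex264 among them, and 2 lower. The X-linked genes Trap1a (3113, 23.6 and 122, 25.6-fold), Nxf7 (1423, 74.7 and 37.7, at least 17.6-fold) and Mageb16 (1226, 15.7 and 16.8, at least 15.2-fold) were highest in endoderm, and the last pair was under the floor on the other arrays. Tfcp2l1, a factor of naive pluripotency, was also higher in endoderm (836, 25.7 and 47.2, at least 10.4-fold).

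By chromosome, the X had the highest share of genes past 2-fold in both directions. Of 409 X-linked genes above the floor 77 were higher (18.8%) and 42 lower (10.3%), where the autosomes ran from 9.32% to 15.6% higher and from 1.76% to 5.91% lower. Among the autosomes and the X the median difference was highest on chromosome 1 (0.12) and lowest on chromosome 7 (-0.02). The share of X-linked genes higher was 15.1% under housekeeping centring, where that of all genes was 9.19%, 14.1% against 9.26% without the floor, 11.5% against 6.12% under a 3-fold limit and 11.5% against 7.13% where all of several probe sets had to pass. The share lower was 13.4% against 6.07%, 7.44% against 3.12%, 4.89% against 1.42% and 5.17% against 1.98% under the same settings. The X thus stood above all genes in both directions under each of these 4. The sources used here give no sex for the embryos.

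**Figure D4:**
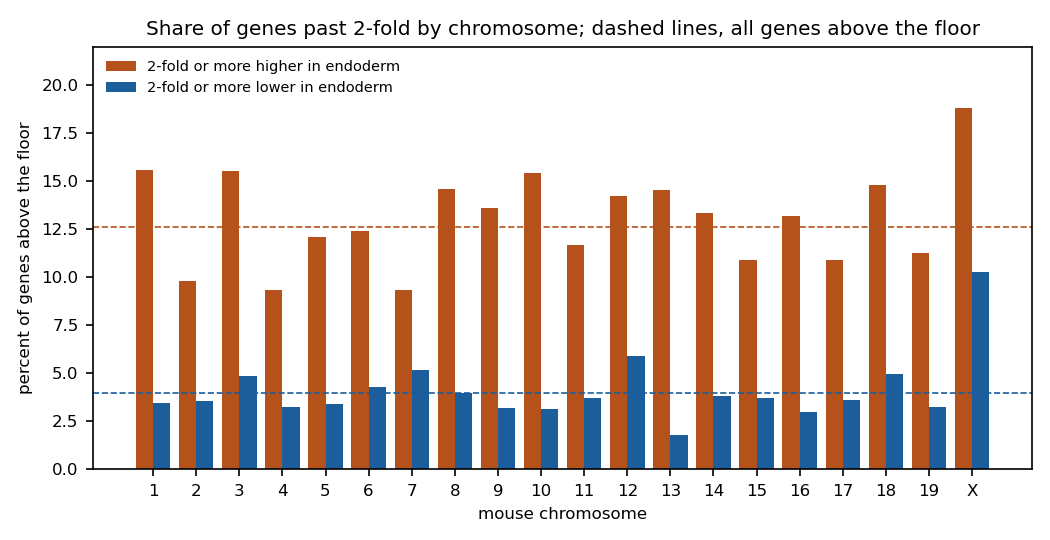
Percent of genes above the floor on each mouse chromosome that were at least 2-fold higher (orange) or lower (blue) in endoderm than in epiblast, 1 array per layer; dashed lines mark all genes, 12.6% and 3.98%. The X has the tallest bar of both colours, 18.8% and 10.3%.

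Neighbouring genes above the floor were sometimes all higher. The longest run, on the X, held 7 genes in a row with a median difference of 4.61: Nrk, Pwwp3b, Trap1a, Rnf128, Tbc1d8b, Cldn2 and Morc4. Nrk, a kinase of the extra-embryonic lineages, read 5610.5, 143 and 148 (38-fold), Rnf128, a ubiquitin ligase, read 2756, 249 and 302 (9.13-fold), and Cldn2, a pore-forming claudin, read 3026, 114 and 51.6 (at least 37.5-fold). Pwwp3b read 2711, 1453 and 388 (6.98-fold) and Tbc1d8b 160.0, 63.5 and 69.1 (at least 1.98-fold). Runs of 5 lay on chromosome 19 (Cutc, Abcc2, Dnmbp, Cpn1 and Erlin1, median 1.85) and chromosome 6 (Tmem150a, Rnf181, Vamp5, Vamp8 and Ggcx, median 2.02). The apolipoprotein cluster Apoa1, Apoc3, Apoa4 and Apoa5 on chromosome 9 was a run of 4 (median 2.42), and Cfap69, Steap2, Steap1 and Sri on chromosome 5 another (median 2.05). Against the floor Vamp5, Ggcx and Cfap69 were at least 1.17-fold, 1.83-fold and 1.59-fold higher. Like Tbc1d8b, they pass 2-fold only through an epiblast value under the floor, and their runs depend on it. The genes of a run were chosen by their shared call as well as by position, so that all were higher follows from the choice. The number and length of the runs were not set against chance.

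Promoter sequence differed with the size of the difference on the endoderm side. For promoters, genes were sorted by size without raising dim values to the floor. The 10-fold set can therefore hold genes with a smaller fold against the floor. Of the 115 genes at least 10-fold higher with a promoter sequence, 50 (43.5%) had a CpG ratio, observed over expected, under 0.4, against 17.2% of the 1295 genes at least 2-fold higher, 22.2% of the 370 at least 2-fold lower and 15.7% of all 10210. The median ratio was 0.46, 0.69, 0.65 and 0.74 in the same order. TATAAA on either strand was found in 16.5%, 9.81%, 10.3% and 8.84%. The 62 genes at least 4-fold lower had a ratio under 0.4 in 27.4% (17 genes), a median ratio of 0.61 and TATAAA in 11.3% (7 genes). On the epiblast side the cut is 4-fold in place of 10-fold, and the gaps rest on few genes. A shift with size was not tested there. Of the motifs of tissue factors searched on both strands, TTAATNATT, the form bound by HNF1, was found in 6.09% of the genes at least 10-fold higher (7 of 115), 2.01% of those at least 2-fold higher, 0.811% of those lower and 0.931% of all. CAAAGTCCA, a form bound by HNF4, was found in 0.870%, 1.24%, 0 of 370 and 0.490%. Other motifs were also more frequent among the genes at least 10-fold higher than among all: forkhead (TGTTTAC) in 7.83% against 3.07%, the POU octamer (ATGCAAAT) in 3.48% against 1.47%, the letters AGATAA of GATA factors in 11.3% against 7.84%, SOX (ACAAAG) in 20.9% against 16.7% and TEAD (GGAATG) in 27.0% against 14.3%. The forkhead and POU letters were also more frequent among the 62 genes at least 4-fold lower, at 6.45% and 4.84% (4 and 3 genes). TGACGTCA, the CRE, was less frequent among the genes at least 10-fold higher (0 of 115 against 3.44%). Genes with several promoters in the table, 2075 of them, were counted where any promoter held the letters. The features are not independent of base composition, and the median GC content was 57.5% for the genes at least 10-fold higher and 60.7% for all.

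**Figure D5:**
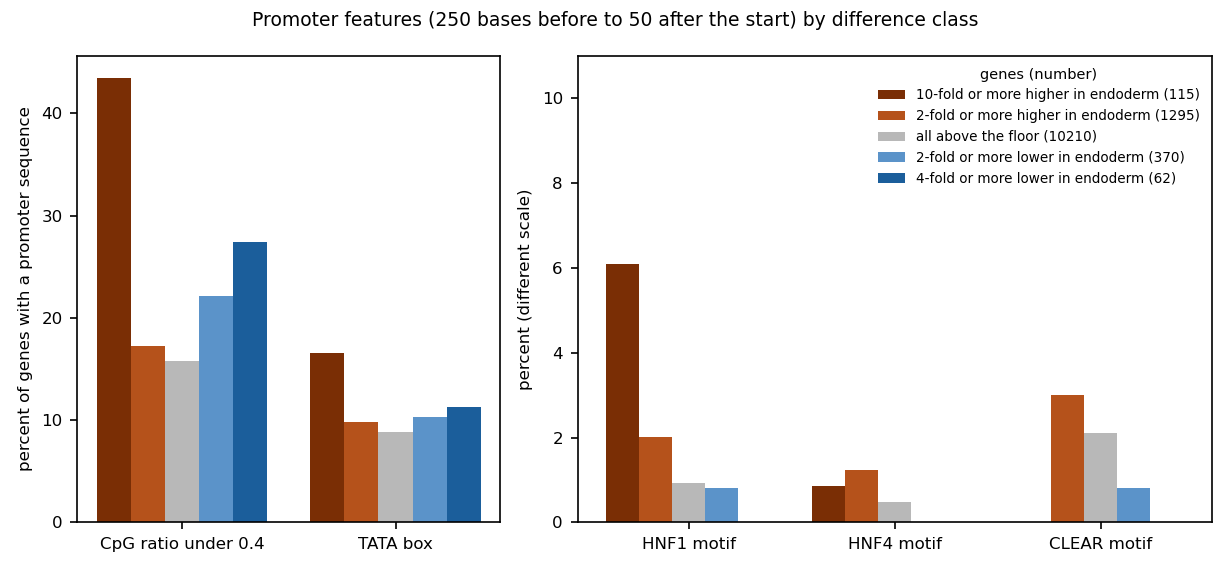
Percent of genes with a promoter sequence (250 bases before to 50 after the RefSeq start) that have a CpG ratio under 0.4, a TATA box, or an HNF1, HNF4 or CLEAR (TCACGTGA) match on either strand, by size of the difference between the endoderm and epiblast arrays; the right panel has its own scale and the number of genes is in the key. Low CpG ratios and HNF1 matches are most frequent among the 115 genes at least 10-fold higher in endoderm, while CLEAR matches number 0 of 115 there.

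The HNF1 letters lay close to the start of several genes of uptake and transport described above. The windows of 6 are shown because they join the uptake receptor Cubn, the carrier Slc7a9, the calcium carrier S100g, the microvillus protein Cdhr2, the receptor Pth1r and the serum protein Afp, each at least 4-fold higher in endoderm. They were picked by hand with their values known, so their differences are not a result about the letters. The capitals mark the match, which reads AATNATTAA where it lies on the other strand.
Cubn (chr2:13492033-13492085, minus strand): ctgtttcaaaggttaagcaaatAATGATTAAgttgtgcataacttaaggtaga
Slc7a9 (chr7:35448990-35449042, plus strand): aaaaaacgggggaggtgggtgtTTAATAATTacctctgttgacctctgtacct
Afp (chr5:90490588-90490640, plus strand): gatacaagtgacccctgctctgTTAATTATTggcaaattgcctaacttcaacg
S100g (chrX:162964636-162964688, minus strand): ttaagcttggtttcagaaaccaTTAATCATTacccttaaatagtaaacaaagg
Cdhr2 (chr13:54701388-54701440, plus strand): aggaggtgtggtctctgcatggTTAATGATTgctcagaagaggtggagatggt
Pth1r (chr9:110747119-110747171, minus strand): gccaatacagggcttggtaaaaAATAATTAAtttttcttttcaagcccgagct
Cubn read 6854, 41.7 and 33.2, Afp read 5307, 40.4 and 43.0 and S100g read 2203, 19.5 and 36.7, all dim in both other layers, whereas Pth1r read 1548, 838 and 112 and was bright in mesoderm as well. In total 26 of the 1295 genes at least 2-fold higher with a promoter sequence held the letters. So did 66 of the 8545 genes within 2-fold and 3 of the 370 lower. By family, 4 of 190 solute carriers, 1 of 19 endocytic genes and 1 of 30 microvillus genes held them. Among brush border peptidases and ABC transporters it was 0 of 10 and 0 of 23.

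How far a call rests on 1 probe set could be measured where a gene had several above the floor. Of 690 such genes at least 2-fold higher in endoderm, 386 were past 2-fold in all their probe sets, and 98 had a probe set of the opposite sign. Of 195 such genes at least 2-fold lower, 107 were past 2-fold in all and 5 had a probe set of the opposite sign. Of 158 genes named here that were past 2-fold and had several probe sets above the floor, 15 had a probe set of the opposite sign, all of them called higher, so their direction rests on the probe set. The lowest difference was -0.71 for Lifr, -0.68 for the linker histone H1f2, -0.52 for the sheddase Adam10 and -0.41 for Cd151, whose brightest probe sets differed by 1.63, 1.55, 1.64 and 1.57. For Amot, Aqp11, Atp1b1, Ctsa, Dnmbp, Fgfr3, Fzd6, Gas6, Ghr, Mbd2 and Vegfa it lay between -0.27 and 0.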

How the data were processed

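The intensity values were deposited by the authors as 1 table after Robust Multiarray Average background correction and normalization (affy package, version not given in the sources used here). They are linear, and the step from log2 to this scale is not described. Depth does not apply to arrays, and 1 array per layer limits the precision. Of 45037 probe sets, 34945 had 1 gene symbol, 932 had several and 9160 are unnamed here. A gene took the probe set whose log2 values, averaged over the 3 arrays, were highest. Only differences, counts past 2-fold and medians were computed, with no test (the study's methods name Significance Analysis of Microarrays, which needs replicates). The calculation was tested on simulated data. Named genes are the 20 widest in each direction (dim values raised to the floor), up to 6 members past 2-fold per family with at least 5 members above the floor, up to 3 against the family's sign, and the cell type markers. Families, members and motifs were chosen with earlier results of these data known, and 24 wrong matches were dropped by hand. Promoters came from RefSeq (GRCm38.p6), CpG ratios being averaged over a gene's promoters. Tools were Python 3.11.15, pandas 2.3.3, numpy 2.4.6, R 4.3.3 and limma 3.58.1 (quantile and cyclic loess). Protein sequence features were not analysed here.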

Additional observations from a re-analysis of the deposited data

How the results depend on the processing

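With 1 array per layer no replicate could be left out. No paired analysis was possible because each layer has 1 array. No named gene past 2-fold and no family median of 1 or more in size changed sign under the alternatives that gave it a value, which were at most 10 of the 12 tried. Of 345 named genes, 138 had a difference that moved by at least 0.40, the SD between probe sets, under at least 1 of them, among them 102 under the mean of all probe sets and 53 with dim values raised to the floor. Genes at least 2-fold higher in endoderm numbered 1596 and ranged from 1162 (housekeeping centring) to 1684 (no floor), except 773 under a 3-fold limit and 386 where all of several probe sets had to pass. Genes lower numbered 503 and ranged from 388 (mean of all probe sets) to 669 (quantile normalization), except 767 under housekeeping centring, 299 with the floor at the 75th percentile (an intensity of 286), 179 under a 3-fold limit and 107 where all of several probe sets had to pass. The stricter limits lower the counts by construction. Of 8 families with a median of 1 or more there were 4 without the floor, 19 with the floor at the 75th percentile, 5 after quantile normalization and 5 after housekeeping centring, so the number depends on the floor and on the scaling. Without the floor the V-type proton ATPase stood at 0.93, metallothioneins, iron and copper at 0.55 and microvillus genes at 0.35, since genes dim in both layers then enter. At least 1 alternative moved the median of 31 of 126 families by at least 0.40.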
